A study of Mus musculus with 58 samples.

Results

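The genes described here were 8 enzymes of cholesterol synthesis, *Hmgcs1*, *Idi1*, *Fdps*, *Fdft1*, *Sqle*, *Lss*, *Cyp51* and *Dhcr7*, chosen by name and looked up by gene symbol among the 31246 genes listed for each of 2 brain regions, the entorhinal cortex (EC) and, as the second, the primary visual cortex (PVC). All 8 were listed in both regions, and 7 of them had a mean of at least 10 normalized counts in each region. The study sequenced poly(A)+ RNA of male C57Bl/6 *APOE* targeted replacement mice aged 14 to 15 months, with 10 *APOE3/3* and 19 *APOE3/4* mice in each region and 58 libraries in all. In these mice human *APOE* replaces the mouse gene and is driven by the mouse promoter, so that mice of both genotypes carry at least 1 *APOE3* allele and no mouse *Apoe*. The mice came from separate colonies, and the colony of a mouse was not used here. The regions were chosen by the study as one that Alzheimer's disease affects early and one that it largely spares, and the values below bear on the levels of the enzymes in these regions, with the genotypes pooled. The effect of genotype was not analysed here.

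The brain makes nearly all of its own cholesterol, because lipoproteins of the blood do not cross into it, and apolipoprotein E carries cholesterol between its cells. Synthesis starts from acetyl-CoA, passes through mevalonate and the isoprenoid farnesyl diphosphate, and becomes committed to sterols when squalene is made. Squalene is then closed into the ring of lanosterol and trimmed to cholesterol. In most cells the genes of these enzymes are switched on together by the transcription factor SREBP2 when sterols run low, and oligodendrocytes and astrocytes are known as strong producers in the brain.

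Each value is the authors' mean normalized count, in which reads per gene were divided by a size factor of the library and averaged over the libraries of a region. Values of individual animals were not analysed here, which leaves the spread over mice unknown, and no difference below was tested. The lowest means fell on exact steps, each the worth of 1 read in 1 library. Such steps numbered 30 in the EC under every setting tried, 1 more than its 29 labelled libraries. In the PVC they numbered from 28 to 31 with the rule used to find them, 30 under the rule kept here, which was chosen after these counts were seen, and 29 where at least 8 genes had to share a step. The number of libraries behind the PVC means is therefore not settled, and the further step of the EC was not traced to a library. Labels mark 2 EC and 5 PVC libraries as run more than once. By these steps the size factors of the libraries ran from 0.228 to 2.04 in the EC, and from 0.268 to 2.61 in the PVC. They also gave the counting error of each mean, which for the 7 measured enzymes lay between 0.280% and 0.441% of the mean in the EC, and between 0.388% and 0.703% in the PVC. Intervals below are 95% intervals from this counting error only. PCR copies were not set apart, and the true error over mice is larger by an unknown amount.

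*Hmgcs1*, the synthase that joins acetyl-CoA to acetoacetyl-CoA at the head of the mevalonate pathway, was listed at exactly 0 in both regions. The enzyme before it in the pathway was not. *Acat2*, which makes acetoacetyl-CoA, had a mean normalized count of 1966 in the EC against 991 in the PVC. The value of 0 was therefore followed to the reference sequence. The RefSeq promoter of *Hmgcs1*, 250 bases before its start and 50 after, was searched in 32-base windows through the 211 sequences of the NCBIM37 genome, the assembly also called mm9 to which the authors aligned the reads. It was found whole at 2 places and in part at none, both on unplaced contigs and neither on a chromosome. They were bases 132387 to 132686 of a contig of 163442 bases, and bases 112855 to 113154 of another of 186869 bases, on the minus strand of each. In GRCm38.p6, the next assembly, RefSeq places it on chromosome 13 (chr13:119690101-119690400, plus strand). The promoter of *Idi1*, another gene of chromosome 13, was found whole at 1 place, chr13:8884602-8884901 on the plus strand of NCBIM37. The promoters follow, with that of *Dhcr7* at the third of its starts (chr7:151015869-151016168, plus strand of NCBIM37), an enzyme whose regional difference is given further on. All are RefSeq sequences of GRCm38.p6 written 5′ to 3′, with motifs in capitals: CCAAT or its reverse complement ATTGG (the box bound by NF-Y), CACCCCAC (a core of sterol regulatory elements) and CACGTG (an E-box), each searched on both strands. No motif matches overlap in the sequences shown.
Hmgcs1: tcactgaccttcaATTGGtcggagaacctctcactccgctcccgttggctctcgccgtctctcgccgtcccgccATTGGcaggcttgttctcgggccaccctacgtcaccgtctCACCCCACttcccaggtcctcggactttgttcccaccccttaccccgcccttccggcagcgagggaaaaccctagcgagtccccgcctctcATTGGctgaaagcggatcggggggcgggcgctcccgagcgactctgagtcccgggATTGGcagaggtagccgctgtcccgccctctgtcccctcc
Idi1: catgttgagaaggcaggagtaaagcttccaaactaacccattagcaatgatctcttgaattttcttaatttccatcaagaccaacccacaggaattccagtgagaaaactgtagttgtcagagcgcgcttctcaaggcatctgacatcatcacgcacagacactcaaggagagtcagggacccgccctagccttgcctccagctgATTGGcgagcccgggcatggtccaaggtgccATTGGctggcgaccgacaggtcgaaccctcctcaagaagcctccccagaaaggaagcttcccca
Dhcr7: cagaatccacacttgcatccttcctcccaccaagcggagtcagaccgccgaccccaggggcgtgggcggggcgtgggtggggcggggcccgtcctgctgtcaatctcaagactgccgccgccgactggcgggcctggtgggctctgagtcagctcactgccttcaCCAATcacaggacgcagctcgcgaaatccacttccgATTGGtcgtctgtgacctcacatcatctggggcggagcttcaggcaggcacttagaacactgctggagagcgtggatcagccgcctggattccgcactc

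Chromosome 13 of NCBIM37 is 120284312 bases long, and its last annotated gene, *Gm7120*, ends 35 bases before the end. In RefSeq *Gm7120* (now *Tmem267*) is followed on chromosome 13 by the protein coding genes *Ccl28*, *Hmgcs1*, *E130304F04Rik* (now *Nim1k*) and *Zfp131*. These neighbours were looked up after the 0 of *Hmgcs1* was seen. All 4 genes were listed, and all 4 were at 0 in both regions. On the near side of the chromosome's end *Gm7120* had a mean normalized count of 420 in the EC against 202 in the PVC, and *Paip1* had 2321 and 1469. None of the 4 genes at 0 is in the annotation used here, a GENCODE annotation of NCBIM37. The authors counted on another, modified NCBIM37 annotation, and all 4 genes are listed in their values. Of the 26 listed genes with a protein coding RefSeq symbol that the GENCODE annotation lacks, 20 were at 0 in both regions (76.9%). Of 17716 genes that it holds, 1193 were (6.73%). These shares do not describe the authors' annotation. The value of *Hmgcs1* is thus given only as listed at 0, and the enzyme has no level or regional difference here. Whether reads from the gene were left on the contigs was not tested.

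Among the 7 measured enzymes, those that make farnesyl diphosphate and squalene had the highest levels. Levels are compared between genes as the mean normalized count per kilobase of merged exons of the GENCODE annotation of NCBIM37. *Fdps*, which joins isoprene units into farnesyl diphosphate, was highest at 2372 per kilobase in the EC (95% interval of counting error 2355 to 2389) and 1160 in the PVC. *Fdft1*, the squalene synthase, was next at 1740 in the EC against 984 in the PVC. *Lss*, which closes squalene epoxide into lanosterol, was lowest at 294 in the EC against 151 in the PVC. By merged exon length the measured enzymes thus spanned 8.07-fold in the EC and 7.68-fold in the PVC.

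Between these ends lay *Idi1*, the isomerase that turns isopentenyl diphosphate into the form *Fdps* starts from, with 836 per kilobase in the EC and 503 in the PVC. *Sqle*, the squalene epoxidase and a rate-limiting step after squalene, had 778 and 317. *Cyp51*, the demethylase that acts on lanosterol, had 747 and 415, and *Dhcr7*, the reductase of the last double bond, had 528 and 226. *Sqle* stood above *Cyp51* in the EC and below it in the PVC, while the other enzymes held the same order in both regions. Neighbours in the order were apart by more than counting error in 6 of 6 pairs in each region, but the spread over mice could not be set against these gaps. Division by the longest annotated transcript in place of merged exons kept 20 of the 21 pairwise orders in the EC and placed *Sqle* (965) above *Idi1* (836). It also raised *Lss* to 453 per kilobase in the EC, where it stayed lowest, so that the span narrowed to 5.23-fold in the EC and to 4.98-fold in the PVC. The transcripts used had 6992 bases for *Lss* and 4467 for *Sqle*, whereas their longest protein coding transcripts have 4667 and 2758. Levels by protein coding length were not computed. The places of *Lss* and *Sqle* in the order, and the span, thus depend on the length chosen.

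**Figure D1:**
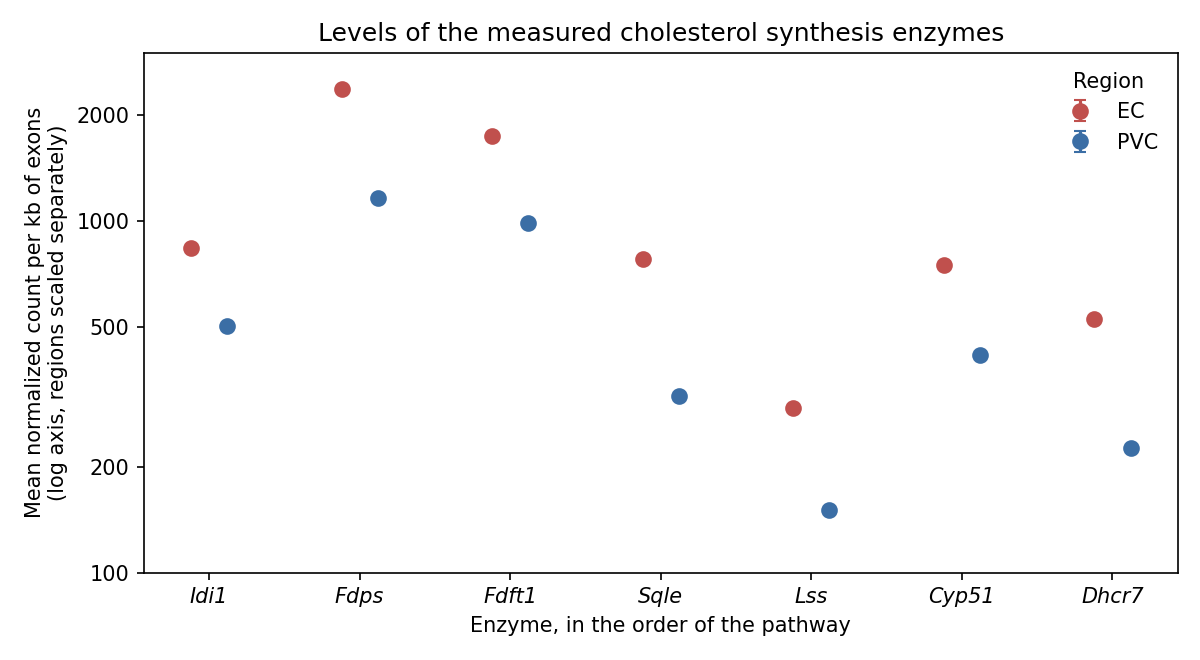
Levels of the 7 measured enzymes, in pathway order, as the authors' mean normalized count per kilobase of merged exons on a log axis, red for the EC and blue for the PVC, each point with its 95% counting interval, mostly smaller than the point. *Fdps* is highest (2372 in the EC) and *Lss* lowest (294), and as the regions were scaled separately, the general offset between colours is no difference of expression.

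Among genes with a mean of at least 10 and an exon length, the measured enzymes lay in the upper part of the range. The median enzyme stood at percentile 76.8 of 16072 genes in the EC, and at percentile 74.3 of 14997 genes in the PVC. With merged exons as length, *Fdps* was at percentile 93.5 in the EC and *Lss* at 52.3.

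The regions were normalized separately, and the median gene had a mean 1.86 times as high in the EC table as in the PVC table. Regional differences are therefore given as the log2 ratio of the PVC mean to the EC mean, minus that of the median gene over 15642 genes with a mean of at least 10 in both regions. On this scale *Sqle* and *Dhcr7* were lower in the PVC and the other measured enzymes stayed within 1.2-fold of the median gene. *Sqle* had a mean normalized count of 4312 in the EC against 1760 in the PVC, a centred log2 ratio of −0.40 (counting error only, 95% interval −0.42 to −0.38). *Dhcr7* had 1997 and 855, a centred log2 ratio of −0.33 (−0.35 to −0.31). Their ratios of EC mean to PVC mean were thus 1.32 and 1.26 times that of the median gene. With a limit of 1.2-fold, 2 of the 7 measured enzymes were lower in the PVC, where 17.5% of all genes were, and 0 were higher, where 13.9% of all genes were. *Sqle* was at percentile 11.2 of all genes by this difference and *Dhcr7* at 14.1, so differences of this size were common among genes.

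The remaining enzymes did not reach 1.2-fold. *Fdps* had means of 2924 in the EC against 1431 in the PVC and a centred log2 ratio of −0.14. *Lss* had 3168 and 1629 with −0.067, which was also the median of the 7 measured enzymes, where that of all genes is 0 by construction. *Cyp51* had 3200 and 1777 with 0.04, and *Fdft1* had 4975 and 2815 with 0.07. *Idi1* had 2396 and 1441 with 0.16, the highest of the measured enzymes. The middle 50% of all genes lay between −0.16 and 0.14, which took in *Fdps*, *Lss*, *Cyp51* and *Fdft1*. *Idi1*, at percentile 77.4 of all genes by this difference, lay just above that range.

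**Figure D2:**
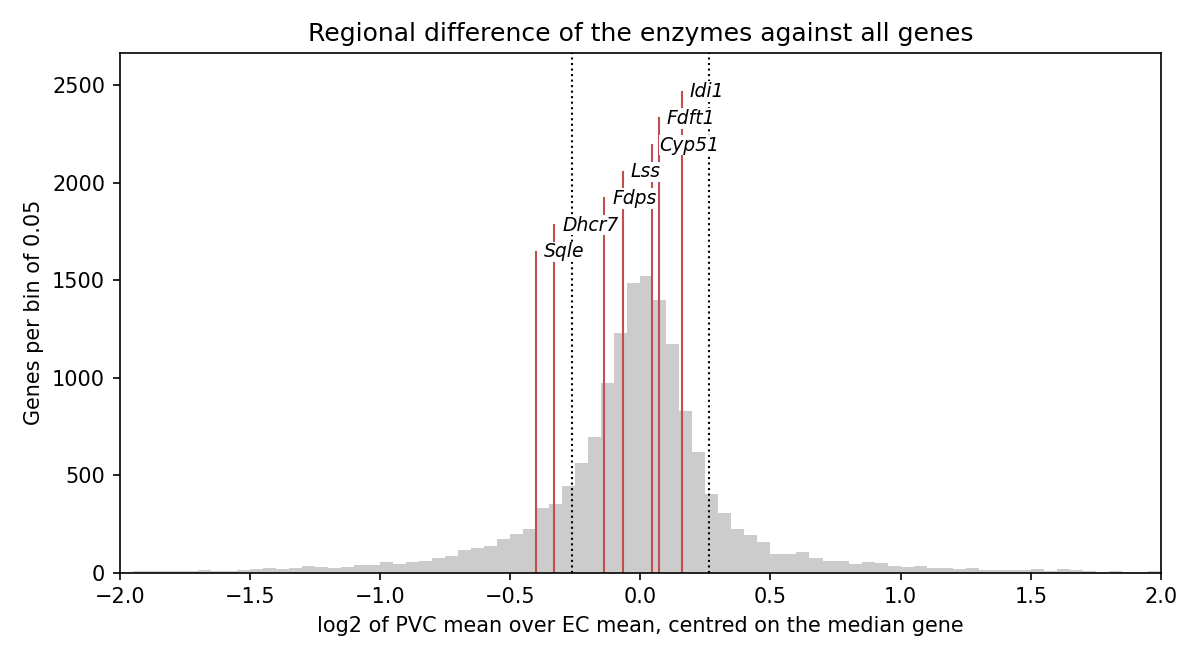
Histogram of the centred log2 ratio of PVC mean to EC mean over 15642 genes (grey, genes per bin of 0.05, values past 2 in either direction not drawn), with the 7 measured enzymes as red lines and dotted lines at 1.2-fold. *Sqle* (−0.40) and *Dhcr7* (−0.33) lie to the left of the dotted line, and the other enzymes lie between the dotted lines.

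The other 13 enzymes of the pathway were listed and measured in both regions, and all but *Nsdhl* stayed within 1.2-fold of the median gene. Together with those described above, 20 of 21 enzymes had a ratio, of which 3 were lower in the PVC by 1.2-fold (17.5% of all genes were) and 0 higher (13.9% of all genes), with a median of −0.08. The share of enzymes that were lower was thus near that of all genes. *Nsdhl*, one of the enzymes that remove the methyl groups at carbon 4, had a centred log2 ratio of −0.27. *Lbr*, a nuclear envelope protein that also has sterol reductase activity, had the highest value at 0.22.

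The regulators of the pathway also lay mostly near the median gene. Of 10 genes, 1 was lower in the PVC by 1.2-fold and 0 were higher, against the same 17.5% and 13.9% of all genes, with a median of −0.02. *Srebf2*, which encodes SREBP2, had a mean normalized count of 13738 in the EC against 7659 in the PVC, and a centred log2 ratio of 0.05. Its escort *Scap* had −0.05, and *Insig1*, which holds SCAP back in the endoplasmic reticulum, had 0.18.

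Oligodendrocyte markers differed more between the regions than any of the enzymes did. Past 1.2-fold, 17.5% of all genes were lower in the PVC and 13.9% higher, the shares to set beside the marker counts that follow. All 8 oligodendrocyte markers were higher in the PVC, with centred log2 ratios from 0.99 for *Cnp* to 1.63 for *Mobp* and a summed level of 47224 normalized counts in the EC and 65255 in the PVC. Astrocyte markers were mixed, 3 of 5 lower in the PVC past 1.2-fold and 1 higher, with a median of −0.28, a summed level of 62753 in the EC against 27857 in the PVC, and *Gfap* at −0.62. Both markers of oligodendrocyte precursors were lower, *Pdgfra* at −0.52 and *Cspg4* at −0.58. Below the median gene, as *Sqle* and *Dhcr7* were, lay both precursor markers, 4 of 5 astrocyte markers and all microglial and endothelial markers. The oligodendrocyte markers and the listed neuronal markers lay above it, as did *Idi1*, *Fdft1* and *Cyp51* among the enzymes. *Sqle* and *Dhcr7* are set out here only because they passed 1.2-fold. The part of cell makeup in these values was not tested, and in bulk tissue fewer cells of a type and less RNA per cell cannot be told apart. Of the listed neuronal markers all 4 were above the median gene, but only 2 passed 1.2-fold, and *Tubb3* was at 0.02. *Rbfox3* was not listed under that symbol. Markers of excitatory cortical neurons were higher in the PVC past 1.2-fold in 4 of 5 cases, with *Slc17a7* at −0.14. The 4 microglial and 2 endothelial markers stayed within 1.2-fold. Both tissues held cortical markers, with *Slc17a7* at 77884 normalized counts in the EC and 38116 in the PVC. *Gabra6* of cerebellar granule cells had 32.5 and 6.36, too low in the PVC for a ratio. *Ttr* of the choroid plexus had 155 and 378, a centred log2 ratio of 2.18, at percentile 99.8 of all genes by this difference.

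**Figure D3:**
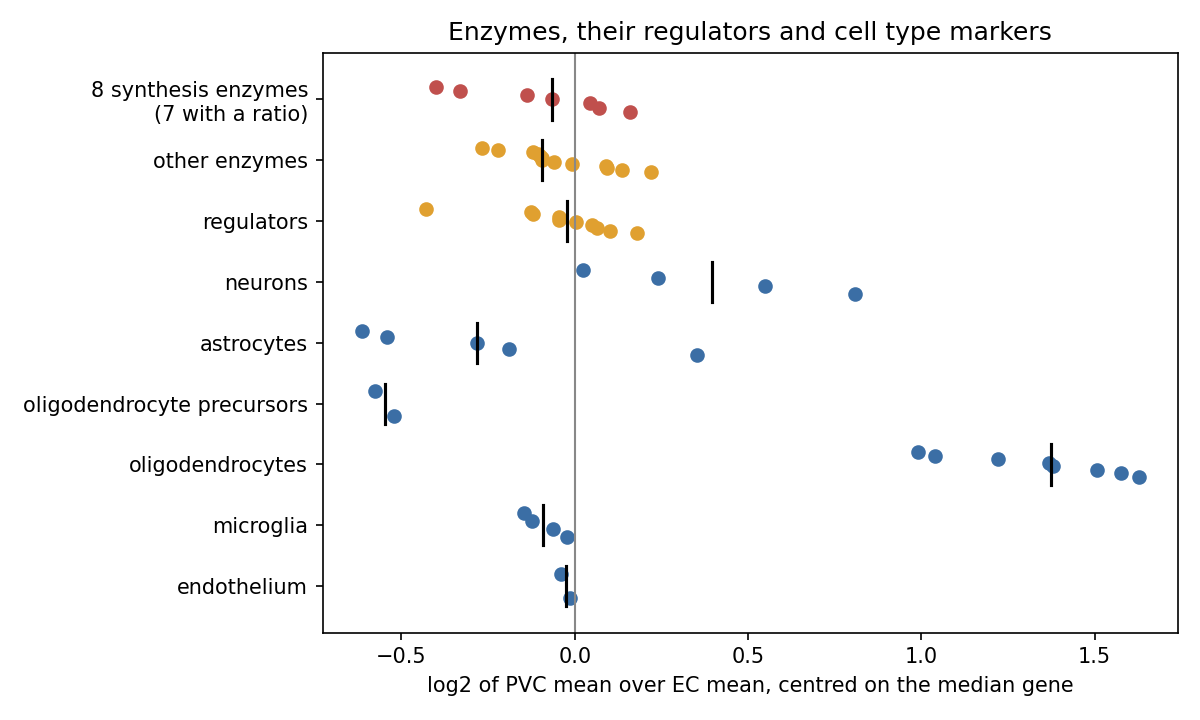
Centred log2 ratio of PVC mean to EC mean for each gene with a ratio in 9 lists, 1 point per gene, the black bar marking the median of the list and the grey line the median gene. The enzymes lie between −0.40 and 0.22, and the 8 oligodendrocyte markers between 0.99 and 1.63.

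Of the 7 measured enzymes, 3 had many short stretches of sequence that also occur at other places in the genome. The longest protein coding transcript in the NCBIM37 set was cut into all its 32-base windows, and each was searched through the genome on both strands. These windows are shorter than the reads, so the shares describe the sequence and do not measure how many reads could be placed. For *Idi1*, 85.6% of 2835 windows were also found outside the gene, 85.2% being found at chr2:53550430-53555892, a stretch that holds the pseudogene *Gm13502*. For *Fdps* the share was 81.1% of 1202 windows, 62.4% being found at the pseudogene *Gm3571* (chr10:93241371-93242495). For *Fdft1* it was 30.2% of 2829 windows, all at the pseudogene *Gm6781* (chr14:19363932-19365475). None of these pseudogenes is listed under its symbol in the deposited values. The share was 2.15% for *Cyp51*, 0.07% for *Dhcr7* and 0 for *Sqle* and *Lss*. In the transcripts searched, little or no such sequence was found for *Sqle*, *Dhcr7*, *Lss* and *Cyp51*. For *Sqle* the transcript had 2758 bases, against 5546 in its merged exons, and for *Lss* 4667 against 10787. For *Dhcr7* it had 2815 against 3784. Exon sequence outside these transcripts was not searched.

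*Fdft1*, on the minus strand at chr14:63763990-63796630, also shares 769 exon bases, 26.9% of its exon length, with *Ctsb* on the opposite strand. *Ctsb*, which encodes the lysosomal protease cathepsin B, had a mean normalized count of 21989 in the EC against 14854 in the PVC, a centred log2 ratio of 0.33. The library kit does not mark strand, so reads in the shared bases cannot be told apart, and how ambiguous reads were counted is not given in the sources used here. *Lss*, on the plus strand at chr10:75994333-76019883, shares 3.53% of its exon bases with the lincRNA *4930483K19Rik*, which had a mean of 23.3 in the EC. The levels and regional differences of *Idi1*, *Fdps* and *Fdft1* are therefore given as uncertain, and the part of *Ctsb* in the values of *Fdft1* was not tested, while *Sqle* (chr15:59146632-59162747), *Cyp51* (chr5:4081145-4104746) and *Dhcr7* (chr7:151009050-151034315) overlap no other annotated gene.

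**Figure D4:**
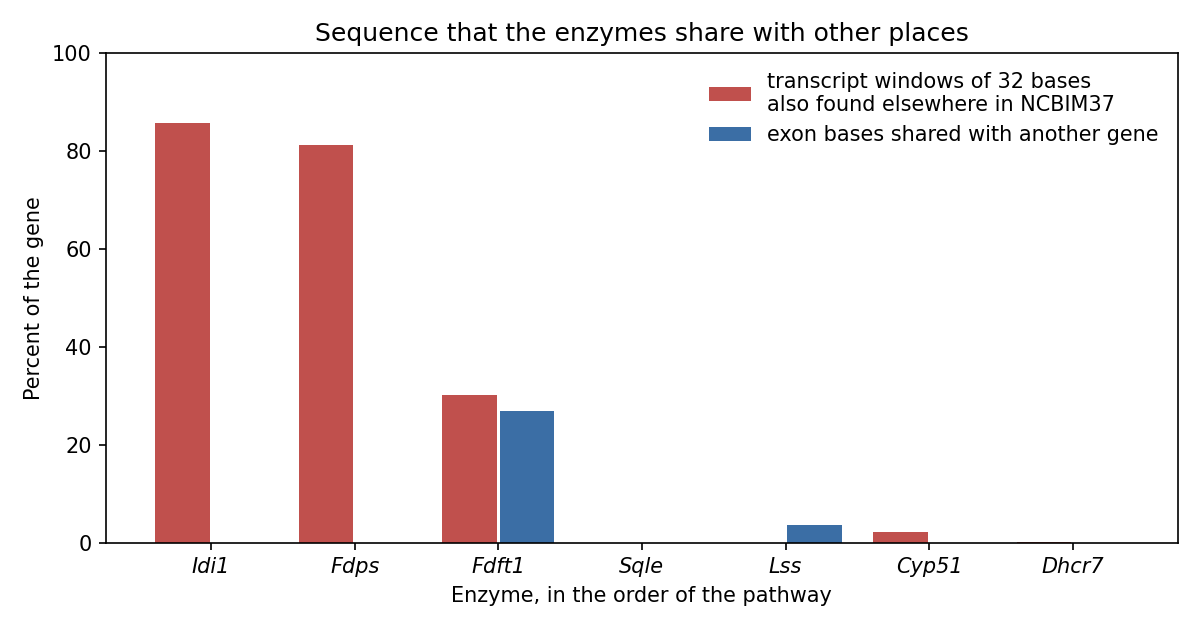
For the 7 measured enzymes, the percent of 32-base transcript windows also found elsewhere in NCBIM37 (red bars) and the percent of exon bases shared with another annotated gene (blue bars). *Idi1* (85.6%) and *Fdps* (81.1%) share most windows with other places, and *Fdft1* shares both windows (30.2%) and exon bases (26.9%). *Sqle*, *Lss*, *Cyp51* and *Dhcr7* have little or none, windows having been searched in the longest protein coding transcript only.

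The promoters of the enzymes shared 1 of the motifs searched, as read from RefSeq for the 5 members with an entry (*Hmgcs1*, *Idi1*, *Lss*, *Cyp51* and *Dhcr7*, with 7 starts between them). *Fdps*, *Fdft1* and *Sqle* had no entry. CCAAT was found in 5 of the 7 promoters and at a start of each of the 5 genes, where 37.4% of all 32851 promoters of this length held it. The *Hmgcs1* promoter printed above held 4, and those of *Idi1* and of the third start of *Dhcr7* 2 each. At the other starts of *Dhcr7* CCAAT was not found. CACCCCAC was found in the *Hmgcs1* promoter alone among the 5 genes, against 2.87% of all promoters, and CACGTG at another start of *Dhcr7*, against 7.15%. A match describes these letters only. Among the other enzymes, 10 of the 12 promoters of 11 genes held CCAAT.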

How the data were processed

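RNA of the EC and PVC was sequenced from 58 labelled libraries, grouped by region and genotype from the labels. The authors aligned reads to mm9 with TopHat2 2.0.6 and Bowtie2 2.0.2.0, counted them with HT-SEQ on a modified NCBIM37 annotation of protein coding genes (a lincRNA is among the genes listed all the same) and normalized them with DESeq2 1.10.1. The deposited mean normalized count is a signal, averaged by the authors within each region. The tables also hold the authors' genotype comparison (fold changes, standard errors, statistics and p-values), which was not used. Both genotypes are pooled in every value and values of individual mice were not analysed here, so no test was run. Columns of per-sample values left unused numbered 0.

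Means were divided by merged exon length of the GENCODE annotation of NCBIM37. It was found for 94.9% of EC genes and 95.6% of PVC genes with a mean of at least 10. Regional log2 ratios were centred on the median gene. The counting error came from size factors read from means under 0.3 shared by at least 5 genes that are no sum of up to 6 smaller ones, to within 1e-11. This rule was set after looser and stricter ones had given other PVC counts. All 1543 EC and 1802 PVC genes with a mean under 0.06 were whole-read sums of the steps, which held under every setting and so does not choose among them. Simulated data of 31246 genes in 30 libraries, with both regions built from the EC means, gave 30 steps in each. The number of libraries was set in the simulation and the PVC means were not used, so it does not settle the PVC count. A limit of 1.2-fold served for description. Python 3.11.15, numpy 2.4.6, pandas 2.3.3 and matplotlib 3.10.9 were used. The genes named are the 8 enzymes and fixed lists of other enzymes, regulators, turnover genes, paralogs and cell type markers (some of these genes are not reported here), plus neighbours, overlapping genes and pseudogenes chosen after values were seen, as was the genome search. Members and lists were chosen with earlier results of these data known. Alternatives were other scales, minimum means of 100 and 0, ranking without length, ranking of all genes above 0, and transcript length.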

Additional observations from a re-analysis of the deposited data

How the results depend on the processing

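The scale between the regions moved the median difference of the measured enzymes little. The median centred log2 ratio of −0.067 was −0.092 with the summed means set equal, −0.092 with the upper quartiles set equal, −0.084 with a minimum mean of 100 and −0.039 with no minimum, the scale itself moving by 0.02 to 0.03. Under these 4 alternatives 2 enzymes were lower in the PVC by 1.2-fold and 0 higher. This count could not change, because no enzyme lay within 0.028, the largest move of the scale, of the limit. The share of all genes past that limit, 17.5% lower and 13.9% higher on the main scale, was not computed for the alternatives. The signs of all 7 enzymes could not change, because the scale moved by at most 0.028 and the smallest difference, of *Cyp51*, was 0.044. The median percentile of level was 83.4 (EC) or 82.5 (PVC) when all genes above 0 were ranked, and 77.4 or 74.1 without division by length. The fold between the highest and the lowest enzyme narrowed from 8.07 to 5.23 (EC) and from 7.68 to 4.98 (PVC) with the longest transcript as length, an alternative added after the data were seen. No paired analysis was possible because the deposited values are means over mice, although the regions share 29 animal numbers. No replicate could be left out for the same reason. Depth does not limit the 7 levels, whose counting error is at most 0.703% of the mean, but the spread over mice is unknown. The count of single-read steps rested on the rule used to find them, under settings added after the data were seen. It was 30 in the EC under all 8 settings. In the PVC it was 31 when a step was checked against sums of up to 3 smaller steps with at least 3 or 5 genes sharing it, 30 with sums of up to 6, 29 with at least 8 genes and 28 with at least 12. The PVC counting error moved by −5.68% to 0.334% of itself over these settings.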

Other observations

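Genes that remove, store or divert cholesterol and its precursors were read from a separate list of 5. Of the 4 with a ratio, 1 was lower in the PVC by 1.2-fold, where 17.5% of all genes were, and 0 were higher, where 13.9% were. *Cyp46a1*, the neuronal hydroxylase by which the brain disposes of cholesterol, had 6383 normalized counts per kilobase in the EC and 3073 in the PVC, above every measured synthesis enzyme in each region, with a centred log2 ratio of −0.16. *Soat1*, which esterifies cholesterol for storage, had a mean normalized count of 1968 in the EC against 737 in the PVC and a centred log2 ratio of −0.52, lower in the PVC than any measured synthesis enzyme. *Cyp27a1*, another sterol hydroxylase, had 149 and 91.4 with 0.19. *Ggps1*, which draws farnesyl diphosphate away from sterols, had 1722 and 991 with 0.10. *Ch25h*, a hydroxylase induced in activated myeloid cells, was low at 28.6 and 8.82.

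*Idi2*, a paralog of *Idi1*, had mean normalized counts of 8.61 in the EC against 1.72 in the PVC, and 40.2% of its 32-base transcript windows were found elsewhere in the genome.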
